A study of Mus musculus with 28 samples.

Results

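The lost distal enhancers without a Brg1 region were 3592 regions of histone H3 lysine 27 acetylation (H3K27ac), taken from 13914 distal and 27332 total H3K27ac regions that were called in both control libraries. Each was more than 2.5 kb from every annotated transcription start site (TSS), shared no base with a region of either H3K27ac list made after Brg1 deletion, and shared no base with a region of any of the 3 Brg1-FLAG lists. Membership was therefore selected on the H3K27ac and FLAG lists themselves, so that every value drawn from those lists below is a description with no test. The label calls these regions enhancers, and the files hold H3K27ac positions alone, so they are called lost regions or members here.

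The study used mouse embryonic stem cells (ESCs) differentiated through embryoid bodies toward mesoderm. Cells of the Brg1f/f; Actin-CreER line, in which both alleles of Brg1 are floxed and a tamoxifen-inducible Cre is driven by an actin promoter, were given 200 nM 4-hydroxytamoxifen (4-OHT) in tetrahydrofuran (THF) at day 2, and controls of the same line received THF alone. Both groups were then induced with VEGF, Activin A and BMP4 for 40 h and collected at day 4. ChIP-seq lists were available for H3K27ac in 2 control and 2 4-OHT libraries, for H3K27me3 in 3 and 3, and for Suz12 in 2 and 2, and Brg1 was mapped through a FLAG tag in 3 libraries of cells with normal Brg1. The labels give the FLAG libraries the Brg1f/f; Actin-CreER line, whereas the paper describes a line with a FLAG tag knocked into Brg1. The paper also describes FLAG in biological duplicate, whereas 3 lists were available. The paper calls the replicates biological, in duplicate for H3K27ac and Suz12 and in triplicate for H3K27me3. The labels do not say whether replicates came from separate differentiations, so the p-values below measure only the spread between these libraries. Control promoters carried H3K27ac in both libraries at 5 of 6 mesoderm markers (T, Mixl1, Eomes, Mesp1 and Pdgfra, but not Kdr), at 0 of 3 neural and 0 of 3 endoderm markers, at 1 of 3 cardiomyocyte markers and at 2 of 3 pluripotency markers.

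Brg1 (Smarca4) is the ATPase of BAF complexes, which use ATP to slide or evict nucleosomes. H3K27ac is laid down by the acetyltransferases p300 and CBP and marks active enhancers and promoters. The same lysine can instead be trimethylated by Polycomb repressive complex 2 (PRC2), of which Suz12 is a core subunit. As mesoderm forms, signals of the Nodal, BMP, Wnt and FGF families act with T-box, Fox and GATA factors on distal enhancers that often lie far from the genes they control.

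The 2 control H3K27ac lists did not match the 4-OHT lists to the same degree, which touches every count of members. Of 5245 distal regions called in control replicate 1 alone, 33.8% were overlapped by no 4-OHT region, against 88.6% of 9555 called in control replicate 2 alone and 33.1% of the 13914 called in both. Distal regions of control replicate 1 were overlapped by the 4-OHT lists in 56.8% and 54.1% of cases, and those of control replicate 2 in 39.9% and 41.4%. With replicate 1 left out, the rule asked for a call in replicate 2 alone and gave 11513 members. With replicate 2 left out, it asked for a call in replicate 1 alone and gave 6601. The files give positions without read counts or scores, so depth is unknown, and a region missing from a list was below the calling threshold rather than shown to be free of the mark. In these bulk samples, fewer cells with a mark and less of it per cell cannot be told apart. No list measures Brg1 after 4-OHT, so its deletion could not be checked here, and the effects of 4-OHT and Cre themselves cannot be told apart from those of the deletion.

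Sequences of 7 members are given as examples, each wider than the median member (450 bp), and are not a representative sample. They are the central 300 bp of the widest member and of the widest member nearest to a gene in each of 6 lists of developmental genes (given below), on the plus strand of mm9, with matches to any of the 13 motifs searched in capitals.
Slc6a6 (chr6:91609388-91609687): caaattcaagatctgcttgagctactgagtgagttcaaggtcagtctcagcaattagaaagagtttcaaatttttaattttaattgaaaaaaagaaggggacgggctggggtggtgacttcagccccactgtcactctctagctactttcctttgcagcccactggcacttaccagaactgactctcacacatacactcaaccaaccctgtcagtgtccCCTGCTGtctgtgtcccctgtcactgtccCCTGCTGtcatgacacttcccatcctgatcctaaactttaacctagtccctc
Zfpm1 (chr8:124814426-124814725): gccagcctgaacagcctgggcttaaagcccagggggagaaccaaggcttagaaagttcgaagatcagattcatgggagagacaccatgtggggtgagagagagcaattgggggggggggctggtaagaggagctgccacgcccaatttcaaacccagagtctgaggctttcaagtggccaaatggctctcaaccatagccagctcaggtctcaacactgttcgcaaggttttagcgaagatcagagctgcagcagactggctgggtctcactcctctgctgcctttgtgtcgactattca
Nrp2 (chr1:62725076-62725375): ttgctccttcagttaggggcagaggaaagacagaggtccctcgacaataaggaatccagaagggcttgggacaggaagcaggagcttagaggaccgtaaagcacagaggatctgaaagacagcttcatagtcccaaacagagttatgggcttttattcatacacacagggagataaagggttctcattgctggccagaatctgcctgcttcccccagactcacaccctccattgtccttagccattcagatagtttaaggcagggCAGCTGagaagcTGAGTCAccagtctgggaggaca
Tgfbr2 (chr9:116395038-116395337): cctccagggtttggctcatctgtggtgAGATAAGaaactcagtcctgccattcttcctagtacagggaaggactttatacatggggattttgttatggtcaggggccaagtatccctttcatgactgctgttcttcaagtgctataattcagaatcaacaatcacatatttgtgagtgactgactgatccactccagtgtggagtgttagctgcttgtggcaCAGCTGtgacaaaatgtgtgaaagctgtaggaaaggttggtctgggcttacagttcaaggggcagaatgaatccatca
Wnt3 (chr11:103659213-103659512): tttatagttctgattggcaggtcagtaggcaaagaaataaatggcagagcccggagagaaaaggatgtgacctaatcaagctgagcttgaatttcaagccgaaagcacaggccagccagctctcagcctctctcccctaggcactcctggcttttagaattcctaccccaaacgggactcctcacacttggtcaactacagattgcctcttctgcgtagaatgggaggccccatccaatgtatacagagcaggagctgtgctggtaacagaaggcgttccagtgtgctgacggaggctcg
Notch1 (chr2:26338276-26338575): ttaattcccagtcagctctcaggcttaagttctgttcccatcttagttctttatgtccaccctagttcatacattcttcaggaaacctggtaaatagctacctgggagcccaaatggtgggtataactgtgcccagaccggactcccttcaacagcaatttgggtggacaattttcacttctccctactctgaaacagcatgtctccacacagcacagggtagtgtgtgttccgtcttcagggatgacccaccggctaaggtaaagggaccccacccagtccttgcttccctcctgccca
Rhob (chr12:8457988-8458287): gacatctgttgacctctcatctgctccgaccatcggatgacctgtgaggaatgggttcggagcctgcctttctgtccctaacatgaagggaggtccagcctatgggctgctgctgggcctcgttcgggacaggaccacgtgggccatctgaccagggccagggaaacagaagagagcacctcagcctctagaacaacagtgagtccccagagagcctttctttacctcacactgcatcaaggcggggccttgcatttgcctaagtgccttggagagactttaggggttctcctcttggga
These members lay 23 kb upstream of Slc6a6, 7.69 kb downstream of a Zfpm1 TSS in an intron, 23.7 kb upstream of Nrp2, 310 kb upstream of Tgfbr2, 22.7 kb downstream of a Wnt3 TSS in an intron, in an intron of Notch1 12 kb from a TSS, and 47.3 kb downstream of Rhob. Matches stood in 3 of these 7 windows. The Slc6a6 window held a pair of Zic matches (CAGCAGG, read on the minus strand), the Nrp2 window an E-box (CAGCTG) and an AP-1 match (TGANTCA), and the Tgfbr2 window a GATA match (AGATAAG) and an E-box. The other windows, near Zfpm1, Wnt3, Notch1 and Rhob, held none of the searched letters.

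The lost share was close in distal regions without and with a FLAG region. Of 10811 distal regions without FLAG, 3592 were lost (33.2%, exact 95% binomial interval 32.3 to 34.1), and of 3103 with FLAG, 1008 were lost (32.5%, 30.8 to 34.2). Over all 13914 distal regions the lost share was 33.1%, and members made up 25.8%. These intervals cover counting error only. Of the 1008 lost regions with FLAG, 665 met FLAG in 1 library, 337 in 2 and 6 in all 3. The FLAG lists held 8021, 8257 and 192 regions, so a region counted as without FLAG was one that none of these lists reached. In the other direction, 1364 of 10785 distal regions in both 4-OHT lists (12.6%) were reached by no control region. Of the 10785, 9114 met no FLAG region, and the 1364 made up 15% of these. Thus 0 of the 1364 met a FLAG region, which allows a share of up to 0.22% (3 counts of the total). Their median width was 300 bp, and among distal control regions of 200 to 400 bp 8.78% met FLAG. FLAG was mapped in cells with normal Brg1, in which these regions had no H3K27ac call.

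Members were narrow regions, and a lack of FLAG was itself more frequent in narrow regions. The share of distal regions that met FLAG rose with every step in width, from 3.97% at up to 200 bp to 68% above 2500 bp. The merged width of members had a median of 450 bp (quartiles 300 and 725 bp, range 25 to 3075 bp), against 725 bp for the 7219 kept regions without FLAG, 700 bp for lost regions with FLAG and 1775 bp for the 2095 kept regions with FLAG. The lost share without FLAG fell with every step in width, from 51.1% at up to 200 bp to 40% at 400 to 600 bp, 22.4% at 1000 to 1500 bp and 3.07% above 2500 bp. At equal width, regions with FLAG had the higher lost share up to 1500 bp (77.4% against 45.4% at 200 to 400 bp, 50.4% against 28.7% at 600 to 1000 bp, with intervals that do not overlap) and about the same share above it (12.5% against 11.3% at 1500 to 2500 bp).

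Cover also differed between the control libraries. Control replicate 2 covered a median of 425 bp of a member and control replicate 1 a median of 200 bp. Replicate 2 gave the longer cover at 3117 members (86.8%), replicate 1 at 371 (10.3%), and 104 were equal. At kept regions without FLAG, replicate 2 was longer in 43%, with medians of 575 bp in replicate 1 and 550 bp in replicate 2. With FLAG, replicate 2 was longer in 94.1% of lost and 78.2% of kept regions. FLAG regions met 7.62% of the distal regions called in control replicate 2 alone and 0.877% of those called in replicate 1 alone. In replicate 1, 864 members (24.1%) were covered over at most 100 bp, against 282 kept regions without FLAG (3.91%). Among the 3003 regions without FLAG whose cover in both control lists was alike (the longer at most 1.2 times the shorter), 441 were lost (14.7%, interval 13.4 to 16, against 33.2% of all regions without FLAG). With FLAG, 135 of 1152 such regions were lost (11.7%, 9.92 to 13.7). The lost share was thus lower by more than 2 times in each set once the control lists were alike. Among these regions, which were not split by width, the lost share was not higher with FLAG than without. Among the 3003 regions without FLAG, members had a median width of 375 bp and kept regions 925 bp.

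**Figure D1:**
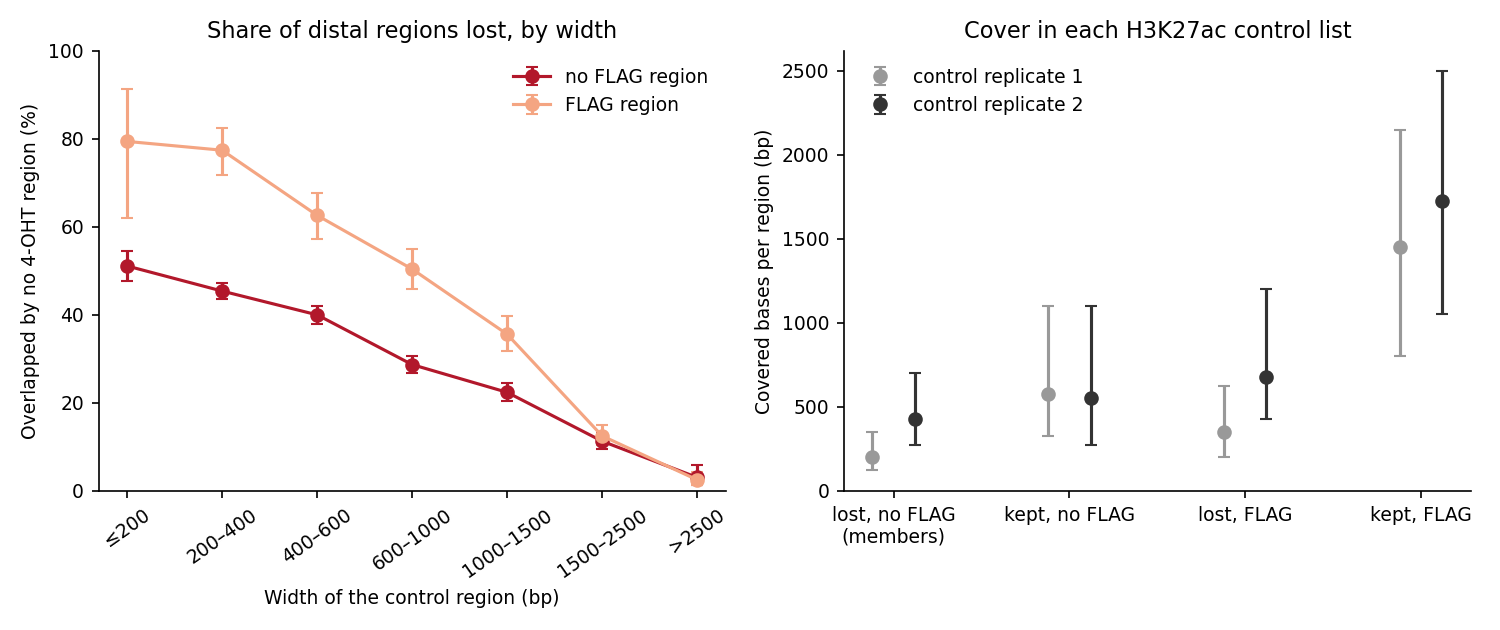
Left, percentage of distal control regions overlapped by no 4-OHT region (y axis) by width of the merged control region in bp (x axis), without and with a FLAG region; bars are exact 95% binomial intervals. Right, bases covered per region in each H3K27ac control list (points, medians; bars, quartiles). The lost share fell from 51.1% to 3.07% without FLAG, and members were covered over 200 bp in control replicate 1 and 425 bp in replicate 2. A wider region has more bases that can meet a 4-OHT region.

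At the edges of the rule, the members closest to a TSS lay 2508 and 2509 bp away, and the closest regions left out for proximity lay 2497 and 2481 bp away. A total of 659 regions met the rest of the rule but were within 2.5 kb. Members were a median of 16.5 kb from the nearest 4-OHT H3K27ac region, and 301 (8.38%) had one within 500 bp. The nearest FLAG region was a median of 32.4 kb away, and 330 members (9.19%) had one within 500 bp, against 2.9% of kept regions without FLAG. In all, 795 members lay within 1 kb of a 4-OHT or FLAG region, the smallest gap being 0 bp (touching without a shared base). On the other side, 541 of the 7219 kept regions without FLAG were covered over at most 100 bp by 4-OHT regions, and 376 of the 1008 lost regions with FLAG over at most 100 bp by FLAG.

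The lost regions lay farther from a TSS than kept regions did. Of 3592 members, 1918 (53.4%) were intergenic, 1527 (42.5%) intronic and 147 (4.09%) touched an exon, against 50.5%, 41.5% and 8.01% of kept regions without FLAG. The median distance to a TSS was 24.9 kb for members, 14.4 kb for kept regions without FLAG and 29.1 kb for lost regions with FLAG. More than 50 kb separated 29.3% of members from any TSS (kept 17.7%), and 24.9% lay within 10 kb (kept 37.6%), with the farthest at 802 kb. At matched width the contrast in distance was as large, and those in location were smaller. Among regions of 300 to 725 bp the median distances were 25.2 kb for 1890 members and 14.4 kb for 2825 kept regions, with exon shares of 4.07% and 6.87% and intergenic shares of 52.6% and 51.2%. Among regions with like cover in both control lists the median distances were 30 kb for 441 members and 14.6 kb for 2562 kept regions. By chromosome, members ranged from 19.8% of distal regions on chromosome 15 (114 of 577) to 29.5% on chromosome 16 (140 of 474).

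The members were spread over many genes. By the nearest TSS of a protein-coding gene, they belonged to 2281 of the 5869 genes that had any distal region (38.9%), or to 4669 genes without control replicate 1 and 3537 without replicate 2. Of these, 1503 genes had 1 member and 497 had 2, while 281 had 3 or more and together held 1095 members (30.5%). At 808 genes every distal region was a member, and 36 of these had at least 3 regions. Among them, Hs3st6, Pcp4, Popdc3, Chst2, Ttc39b and Klhl29 each had 4 of 4. Apcdd1, an inhibitor of Wnt signalling at the membrane, had 3 of 3. A nearest gene is an assignment by distance and says nothing about which promoter a region contacts.

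Genes with the most members ranged from signalling receptors to chromatin and RNA regulators. Zfp36l1, which binds AU-rich messages and promotes their decay, had 10 members among 16 distal regions. Rybp, a subunit of Polycomb repressive complex 1, had 10 of 13. The transcription factor gene Sox4 had 9 of 19, the cell adhesion gene Ntm 9 of 17 and the RNA-binding protein gene Celf4 9 of 13. The farthest Celf4 members lay 853, 853 and 1531 kb upstream of its TSS. Cxcr4, the receptor for the chemokine Cxcl12, had 8 of 17, the polarity gene Pard3 8 of 16, the glycosyltransferase gene Mgat5b 8 of 13, Sipa1l2 8 of 14 and Gm1968 8 of 18. Tcf7l2 with 8 of 16 and Gfra2, which encodes a co-receptor for ligands of the GDNF family, with 8 of 9 had as many, with a smaller summed width. Some of these counts include pieces of one stretch. With members at most 1 kb apart taken as 1, Rybp kept 9, Cxcr4 8, Sox4 8, Ntm 7, Zfp36l1 7 and Celf4 6.

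The widest members were found at genes outside the developmental lists. A region 23 kb upstream of Slc6a6, the taurine transporter gene (chr6:91608001-91611075, 3075 bp), was covered over 1025 bp and 3025 bp in the control lists and over 0 bp in both 4-OHT lists. Next came a member of 2950 bp, 30 kb upstream of 1110008E08Rik (chr16:90521426-90524375, covered over 2675 and 2950 bp), the only one of the 5 widest whose cover was about equal in both controls. A member of 2800 bp in Dennd1a, touching an exon, was 21.7 kb from a TSS of Crb2, a Crumbs polarity gene, and was covered over 1225 and 2800 bp. Those nearest to Stc1 (2700 bp, covered over 850 and 2700 bp) and to Cdh13, which encodes T-cadherin (2675 bp, covered over 1175 and 2675 bp), lay 106 and 177 kb upstream. In these 5 members control replicate 2 covered all or nearly all of the merged width.

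Among transcription factors of mesoderm and the primitive streak, 13 of 33 listed genes were nearest to a member, with 34 members among 107 distal regions (31.8%, interval 23.1 to 41.5, against 25.8% of all distal regions). Eomes, the T-box factor required for mesoderm and definitive endoderm, had 7 of 16, Foxc2 5 of 8, Tbx3 4 of 10, and T (Brachyury), Meis2 and Zfpm1 3 each, of 5, 6 and 6. The members nearest to Foxc2 lay 53.8 to 200 kb downstream, inside introns of the annotated gene Gm20388. Control replicate 1 covered between 25 and 200 bp of each of these, and replicate 2 between 200 and 1550 bp.

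Signalling lists held members at shares from 15% to 34.9%. Blood and endothelial genes had 19 of 55 (34.5%), led by the semaphorin and VEGF co-receptor Nrp2 with 6 of 11, the VEGF receptor Kdr with 4 of 6, and the endothelial cadherin Cdh5 and the haematopoietic factor Runx1 with 3 each. Genes of the TGF-beta, Nodal and BMP pathways had 29 of 83 (34.9%), with 7 of 8 at Id2, a target of BMP that blocks bHLH factors, and 3 each at the BMP antagonist Nog and the inhibitory Smad7. Wnt genes had 42 of 124 (33.9%), with 8 of 16 at the effector Tcf7l2, 6 of 12 at the ligand Wnt5a and 4 of 10 at the feedback inhibitor Axin2. FGF, PDGF and VEGF genes had 9 of 60 (15%, interval 7.1 to 26.6), with 3 at the feedback inhibitor Spry4 and 2 at Fgfr1. Notch and segmentation genes had 11 of 51 (21.6%), with 3 at Maml3. 

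Genes of the epithelial to mesenchymal transition, adhesion and migration had 34 of 143 (23.8%), with 8 at Cxcr4, 4 each at the axon guidance receptor Robo1 and the repressor Zeb2, and 3 at Rhob. Pluripotency genes had 7 of 39 (17.9%), retinoic acid genes 6 of 31 (19.4%), neural genes 6 of 26 (23.1%) and endoderm genes 1 of 17 (5.88%), while cardiomyocyte genes had 3 of only 6. Genes of BAF, acetyltransferases and PRC2 had 12 of 41 (29.3%), of which Jarid2, a PRC2 cofactor, had 5 of 14. The exact interval of each of the 13 lists included the 25.8% of all distal regions. These intervals cover counting error only and treat neighbouring regions as independent. They are no test, as the same lists chose the members.

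At Eomes, 7 members were placed between 6.13 and 139 kb upstream of a TSS. The member nearest to the promoter (chr9:118380326-118381200) was covered over 375 and 875 bp in control replicates 1 and 2. A run of members between 72.9 and 84.3 kb upstream included one of 1450 bp (chr9:118305076-118306525) covered over 1075 and 1450 bp, and one of 1650 bp (chr9:118308726-118310375) covered over only 150 bp in replicate 1 but 1650 bp in replicate 2. Kept regions with FLAG flanked this run at 86.5, 60 and 55.4 kb, and 2 lost regions with FLAG lay at 32.7 and 20.8 kb. Members without FLAG were thus interleaved with FLAG regions, 6 of them kept and 2 lost.

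At Cxcr4, members lay on both sides of the gene, from 61.7 kb downstream to 131 kb upstream. The closest (chr1:130492726-130494300, 1575 bp) was 3.86 kb upstream and was covered over 850 and 1575 bp in the controls. Its nearest FLAG region was 725 bp away, and a lost region with FLAG of 1900 bp lay 6.48 kb upstream. Among the 17 distal regions of Cxcr4, 8 were members, 4 were lost with FLAG, 2 were kept without FLAG and 3 were kept with FLAG. The Cxcr4 promoter carried H3K27ac in both control and in neither 4-OHT library.

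Kdr, which encodes the VEGF receptor Flk1, had 4 members, 24.2 and 7.18 kb downstream of a TSS within the gene and 23.2 and 44.3 kb upstream. The 3 longer ones, 1200 to 1300 bp, were each covered over 150 to 425 bp in control replicate 1 and over their whole width in replicate 2. Its promoter carried H3K27ac in no library and H3K27me3 in all 6. Id2 had all 7 members far upstream, at 124 to 647 kb, and its only other distal region was kept without FLAG. These 7 formed 4 groups once members at most 1 kb apart were counted as 1.

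Tcf7l2 had members in its own introns and in those of Vti1a, 153 to 205 kb upstream, and 6 of its other distal regions were kept without FLAG and 2 lost with FLAG. Its members were 175 to 600 bp wide. Rybp had no lost region with FLAG and no kept region without FLAG, its other 3 distal regions being kept with FLAG. The 4-OHT lists covered 50 and 0 of 1900 bp, 450 and 800 of 1875 bp, and 2600 and 2300 of 2750 bp of these kept regions. At Sox4 the 9 members included 2 within 1 kb of each other about 213 kb upstream, and at Zfp36l1 the widest were 1650 bp, at 265 and 118 kb downstream, covered over 1575 and 1075 bp in replicate 1 and 1625 and 1650 bp in replicate 2. The first of these had nearly equal cover in both controls.

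**Figure D2:**
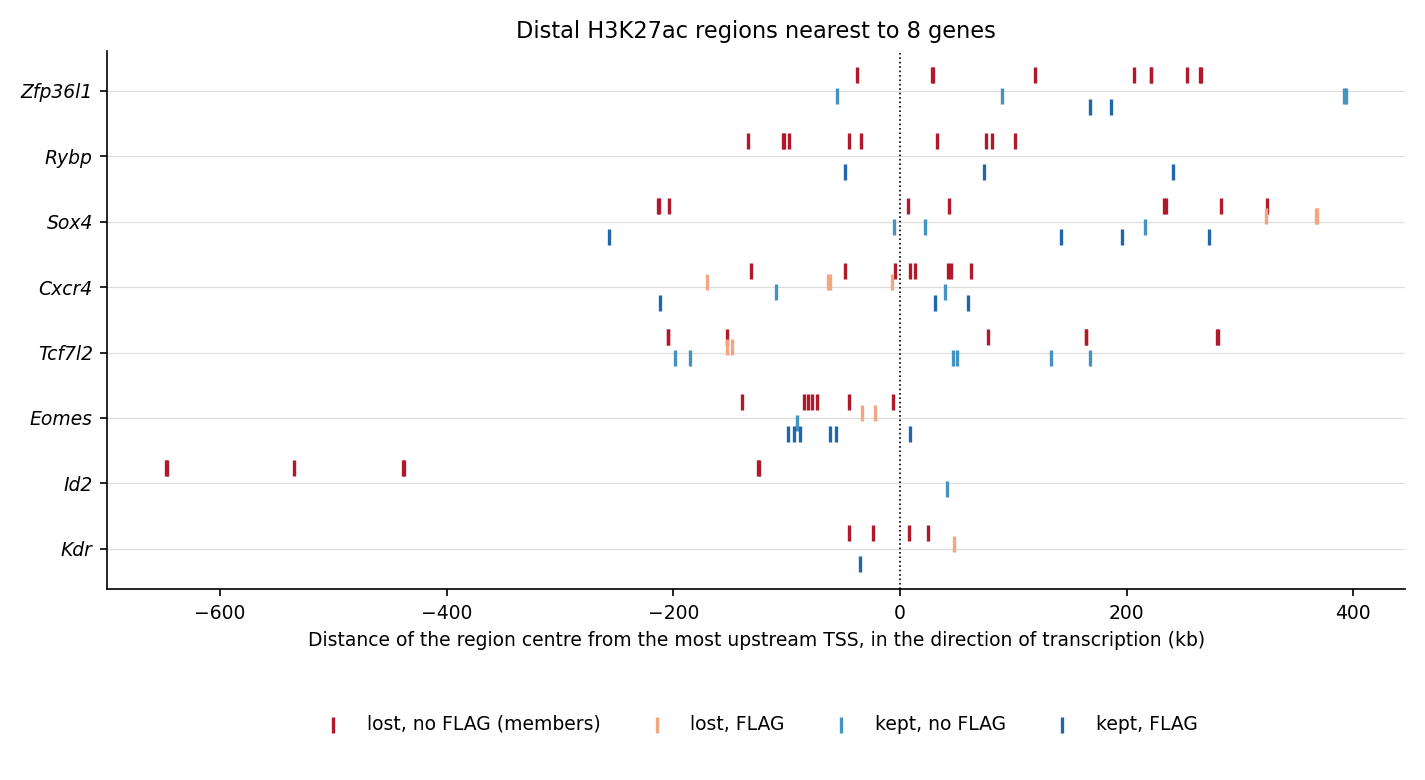
Centres of all distal H3K27ac control regions nearest to 8 genes, by distance in kb from the most upstream TSS in the direction of transcription (x axis), coloured by whether they were lost or kept and met FLAG or not. Members stand on both sides of Rybp, Cxcr4 and Kdr, whereas all 7 members at Id2 are upstream.

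Some of the genes that the study shows or names were looked up as a set. Of these 8 genes, 4 had members. Besides Kdr and Cxcr4, Mesp1 had 1 of 3 distal regions (250 bp, 5.7 kb downstream, covered over 25 bp in control replicate 1 and 250 bp in replicate 2), and Has2, the hyaluronan synthase gene, had 1 of 7 (250 bp, covered over 125 and 250 bp). Cyp26a1, which degrades retinoic acid, had 0 of 7, Sulf1 0 of 4 and Snai1 0 of 2, and no distal region had Pdgfra as its nearest gene.

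Most members had no other member within 20 kb. Joined where the gap was at most 20 kb, they formed 2837 groups, of which 2235 held a single member and 488 a pair. The 114 clusters of 3 or more held 381 members, 87 of them having 3, 18 having 4 and 9 having at least 5, with a median span of 15.5 kb. No other distal region lay inside 74 of these clusters, 29 held a kept region, 37 a FLAG region and 6 a promoter region. Another member was found within 20 kb of 37.8% of members. Over all 13914 distal regions, a denser set, 63.4% had another distal region within 20 kb. Clusters of 3 or more among them numbered 1212 and held 4898 regions. The part of density in this difference was not tested. Where distal regions at most 1 kb apart were joined before the rule was applied, 2684 members and 25 clusters of members remained. The count also moved with the control libraries, to 1009 clusters without control replicate 1 and 383 without replicate 2.

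The largest cluster had 7 members over 56.5 kb downstream of Mgat5b (chr11:116841351-116897900), of 200 to 1450 bp each. Control replicate 1 covered 2825 bp of them in sum and replicate 2 covered 6525 bp, and 2 kept regions with FLAG lay among them. A cluster of 6 members over 28.6 kb (chr9:46250976-46279600) was 123 to 151 kb upstream of 4931429L15Rik. Its first member, 1450 bp wide, was covered over 1150 and 1450 bp in the controls. The third cluster, 5 members over 30.3 kb, lay within introns of Epb4.1l4a, which encodes a FERM domain protein (chr18:34127226-34157500).

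Lost regions, with or without FLAG, sat next to lost regions. The nearest other distal region within 50 kb was also lost for 1558 of 2788 members (55.9%, interval 54 to 57.7), against 1020 of 5489 kept regions without FLAG (18.6%, 17.6 to 19.6) and 33.1% of all distal regions. Lost regions with FLAG had a higher share still, 489 of 774 (63.2%, 59.7 to 66.6), and 79.5% within 2 kb. The pattern was steepest at short range. Within 2 kb the neighbour was lost for 68.6% of members and 13.2% of kept regions, at 10 to 20 kb for 41.6% and 24%, and beyond 50 kb for 38.1% and 31.1%. With regions at most 1 kb apart joined first, the shares were 40.9% for members (38.6 to 43.3) and 21.5% for kept regions (20.2 to 22.9). Where both the region and its neighbour were 300 to 725 bp wide, they were 76.8% of 741 and 18.8% of 944. Among regions with like cover in both control lists they were 27.1% of 188 (20.9 to 34.1) and 8.13% of 1217 (6.66 to 9.81), so the share in members was lower there while still above that in kept regions.

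**Figure D3:**
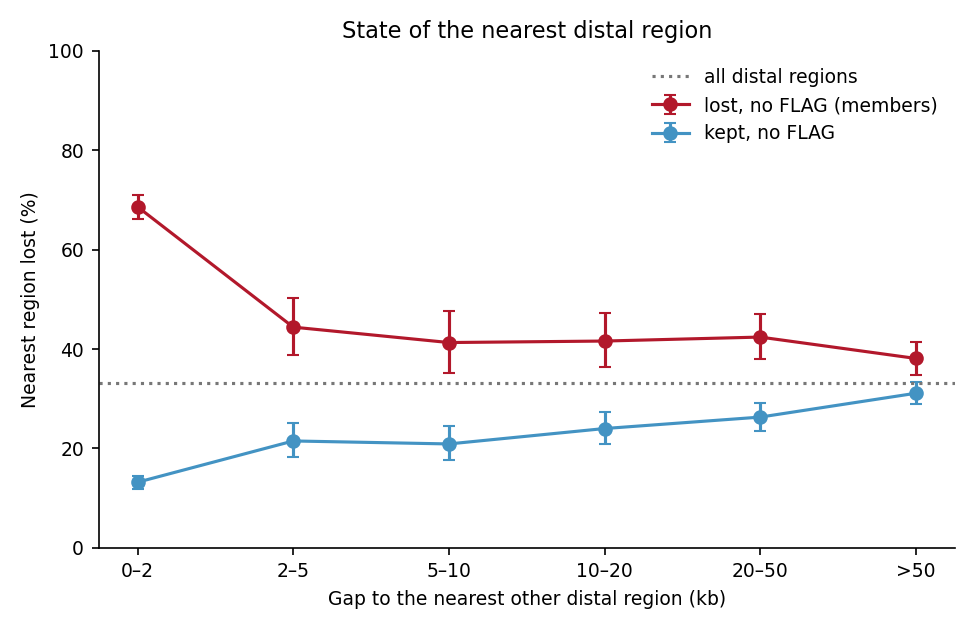
Percentage of nearest other distal regions that were also lost (y axis) by the gap to that region in kb (x axis), for members and for kept regions without FLAG; bars are exact 95% binomial intervals and the dotted line is the 33.1% of all distal regions. Members are highest within 2 kb, at 68.6%, and remain above kept regions at every gap, with 38.1% against 31.1% beyond 50 kb.

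In sequence, members differed from kept regions mainly in AP-1 letters. The motif TGANTCA, bound by Fos and Jun dimers, was found on either strand of the central 500 bp in 567 members (15.8%, interval 14.6 to 17), against 1861 kept regions without FLAG (25.8%, 24.8 to 26.8), 14.7% of lost regions with FLAG and 21.2% of all distal regions. At 300 to 725 bp width the shares were 15.6% and 21%. In the central 300 bp they were 9.02% and 15.8%, so the contrast was present in both windows. Among regions with like cover in both control lists, AP-1 letters were in 76 of 441 members (17.2%, 13.8 to 21.1) and 631 of 2562 kept regions (24.6%, 23 to 26.3). An example of a member that does hold it is the Nrp2 window printed above.

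The shares of the other motifs differed by less, and their intervals in members and kept regions overlapped. The overlap was narrow for T-box (2.7 to 3.89 and 2.09 to 2.82) and Foxh1 (3.39 to 4.7 and 2.64 to 3.44). Overlapping intervals do not show that 2 shares are equal, and no test was made. The T-box letters AGGTGTGA were in 3.26% of members and 2.44% of kept regions, the Foxh1 letters AATCCACA in 4.01% and 3.02%, and the Tcf/Lef letters CTTTGAT in 9.35% and 8.24%. In the central 300 bp Foxh1 letters were at 1.95% in both, and T-box letters at 1.75% and 1.47%. The letters AGATAAG of GATA factors stood at 8.16% and 7.47%, those of Fox factors (TGTTTAC) at 6.71% and 7.02%, the octamer (ATTTGCAT) at 3.73% and 3.52%, Sox (CATTGTT) at 7.41% and 7.13%, and Tead (ACATTCC) at 7.52% and 8.39%. Ets (CCGGAAG) was at 3.15% and 3.74%, the E-box (CAGCTG) at 26.6% and 26.4%, Zic (CAGCAGG) at 19.8% and 19.1%, and the CTCF core (CCACNAGG) at 7.68% and 7.87%. At 300 to 725 bp width the shares in members and kept regions were 2.49% and 2.09% for T-box and 3.39% and 3.04% for Foxh1. For GATA they were 7.2% and 7.86%, and for the octamer 3.54% and 2.48%. None of the 13 motifs was present in 947 members (26.4%). A match is a string of letters and not a bound site.

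Base composition was alike, but CpG-rich members were rare. The central 500 bp had a median GC content of 47.1% in members and 47.4% in kept regions without FLAG. An observed over expected CpG ratio above 0.6, as in CpG islands, was reached by 0.529% of members and 0.694% of lost regions with FLAG, against 3.99% of kept regions without FLAG and 4.44% of kept regions with FLAG.

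**Figure D4:**
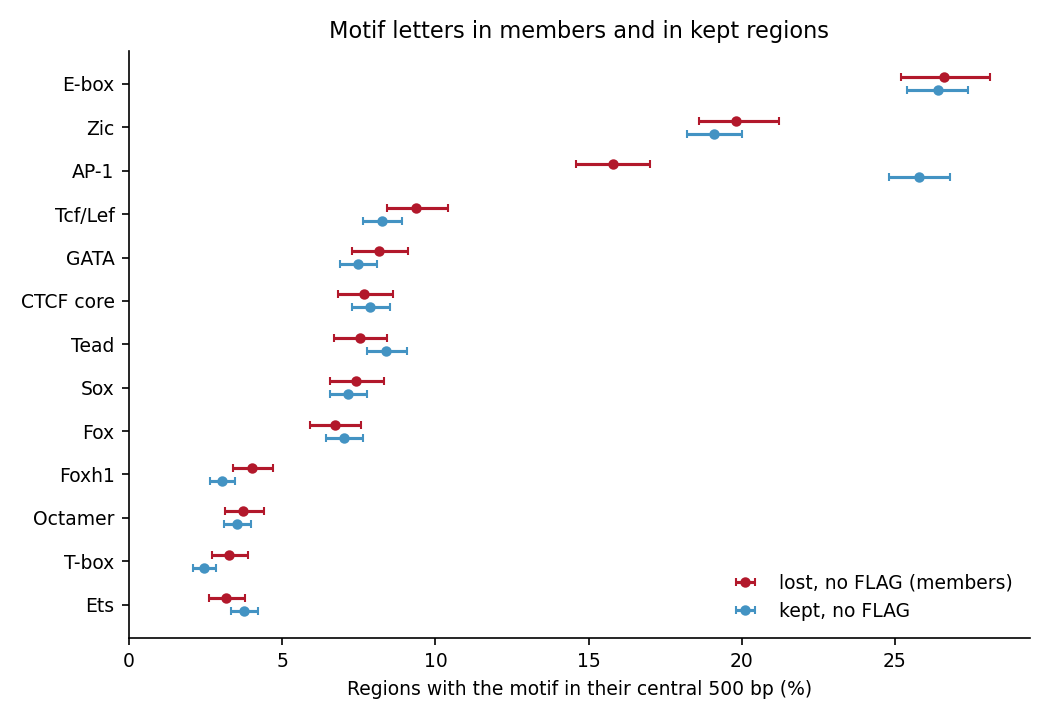
Percentage of regions with each motif on either strand of their central 500 bp (x axis), for members and for kept regions without FLAG; bars are exact 95% binomial intervals. AP-1 letters are at 15.8% in members and 25.8% in kept regions, and the intervals of the other 12 motifs overlap.

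Hardly any member carried a Polycomb mark, before or after Brg1 deletion. H3K27me3 and Suz12 were not used in choosing the members. H3K27me3 regions overlapped 5, 1 and 2 of the 3592 members in the control libraries and 4, 6 and 6 in the 4-OHT libraries, so the ranges overlapped. The means were 0.0742% ± 0.058 and 0.148% ± 0.0321 (SD, n = 3 each; two-sided exact permutation test over libraries, p = 0.2, the smallest possible being 0.1). Suz12 regions overlapped 0 and 0 members in control and 2 and 3 in 4-OHT libraries (exact permutation p = 0.33, the smallest that 2 against 2 can give). Over all 13914 distal regions, 0.41% met H3K27me3 and 0.0934% met Suz12 in any control list.

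Of the 7219 kept regions without FLAG, 19, 15 and 13 were overlapped by H3K27me3 in control and 7, 10 and 11 in 4-OHT libraries, a lower mean after 4-OHT (0.217% ± 0.0423 and 0.129% ± 0.0288, exact permutation p = 0.1, the smallest possible). Their Suz12 share was higher after 4-OHT, as in members, at 0.104% ± 0.0098 and 0.201% ± 0.108 (SD, n = 2 each; exact permutation p = 0.33, the smallest possible). Whether the changes in members and kept regions differed was not tested. In the control libraries the H3K27me3 share was lower in members than in kept regions in 3 of 3 libraries (member minus kept -0.143 ± 0.0322 percentage points, SD, n = 3; exact sign-flip permutation p = 0.25, the smallest possible). None of these tests could pass 0.05.

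The 11 members (0.306%) that met any H3K27me3 or Suz12 list lay nearest to Nog, Dcaf4, Bcl6, Mas1, Hoxd1, Alpl, Klhl17, Lmo1, Slc22a18, Cdh11 and 4931429L15Rik. The one at 4931429L15Rik (chr9:46250976-46252425) met H3K27me3 in 4-OHT replicates 2 and 3 and Suz12 in both 4-OHT libraries, and no control list of either mark. A member of 1600 bp 4.35 kb upstream of Lmo1, a LIM-domain gene, met H3K27me3 in control replicates 2 and 3 and in all 4-OHT libraries, and Suz12 in both 4-OHT libraries alone. That of Nog (1450 bp, 3.25 kb downstream) met H3K27me3 in 4-OHT replicate 2 alone, and that of Cdh11, a mesenchymal cadherin gene (1025 bp), met it in control replicate 1 and in all 3 4-OHT libraries.

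Promoters of the nearest genes carried Polycomb marks far more often than the members did, though the 2 shares are not like measures. A promoter window reached 2.5 kb to each side of every TSS of a gene. Members had a median width of 450 bp and were chosen for carrying H3K27ac. Of the 2281 genes nearest to a member, H3K27me3 regions within 2.5 kb of a TSS were found at 618, 546 and 512 in control and at 473, 509 and 446 in 4-OHT libraries. All 4-OHT values were below all control values, at 20.9% ± 1.39 against 24.5% ± 2.37 (SD, n = 3 each; exact permutation p = 0.1, the smallest possible). At the 3588 genes that had distal regions but no member, the means were 14.8% and 18.1% (exact permutation p = 0.1), a fall of similar size. Suz12 was found at 247 and 251 of the 2281 promoters in control and at 340 and 418 in 4-OHT libraries, 10.9% ± 0.124 and 16.6% ± 2.42 (SD, n = 2 each; exact permutation p = 0.33, the smallest possible). At genes with no member it was at 8.12% and 11.1%. Both marks thus differed the same way at genes with and without a member, and whether the differences were unequal was not tested. The lists themselves differed in length in the same directions, with 16959, 8798 and 8977 H3K27me3 regions in control and 10394, 7872 and 6787 in 4-OHT libraries, and 2951 and 2913 Suz12 regions in control and 3654 and 4016 in 4-OHT libraries, and the part of list length in these differences was not tested. Where a mark had to cover 50% of the promoter window, the 4-OHT minus control difference at genes nearest to a member was -0.585 percentage points for H3K27me3, from -3.62, and 0.219 for Suz12, from 5.7.

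Named genes fell into groups by these marks. Foxc2, Fgf3, Bmp2, Nrp2, Esrrb, Olig3 and Crabp1 had no promoter H3K27ac in any library and H3K27me3 and Suz12 in all. At Eomes, Tbx3, Runx1 and Sox2, the promoter windows met H3K27ac in all 4 libraries and H3K27me3 in all 6, though not necessarily at the same TSS. Wnt5a, Nog and Zfpm1 had Suz12 in 0 of 2 control and 2 of 2 4-OHT libraries, and Eomes, Cxcr4 and Kdr in 1 and 2. Zfp36l1, Rybp, Sox4, Tcf7l2, Pard3, Mgat5b and Jarid2 had H3K27ac in all 4 and neither Polycomb mark in any.

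**Figure D5:**
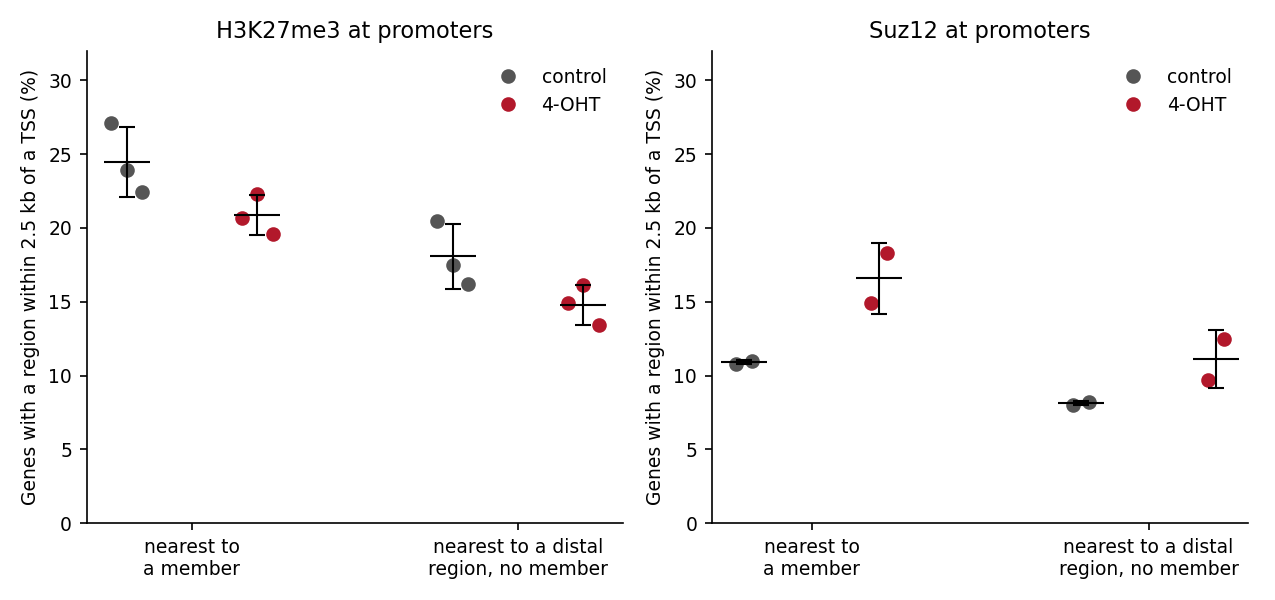
Percentage of genes with an H3K27me3 (left) or Suz12 (right) region within 2.5 kb of a TSS (y axis) in each control and 4-OHT library (points; bars, mean and SD), for 2281 genes nearest to a member and 3588 genes with a distal region but no member. H3K27me3 is lower and Suz12 higher in 4-OHT libraries in both sets of genes.

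Loss of distal regions was rarely accompanied by complete loss of promoter H3K27ac regions at the nearest gene. Promoters of 1377 of the 2281 genes (60.4%) carried H3K27ac in both control libraries, and 38 of these (2.76%, interval 1.96 to 3.77) were reached by no 4-OHT region. At genes with distal regions but no member the count was 48 of 2233 (2.15%, 1.59 to 2.84), and the intervals overlap. A promoter mark that was lowered but still called would not be seen in these counts. Another 790 genes with a member (34.6%) and 1174 without (32.7%) had no promoter H3K27ac in the controls and could not lose it. Of 281 genes with 3 or more members, 191 had promoter H3K27ac in both controls and 4 lost it, namely Apcdd1, Cxcr4, Nt5e and Rapgef5.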

How the data were processed

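Region lists from ChIP-seq were analysed for 17 of 28 samples, the others being inputs. The authors aligned reads to mm9 with Bowtie and called regions against input with a Poisson model, and the deposited lists hold chromosome, start and end on a 25 bp grid, with no counts or scores, so depth is unknown and the measure is the presence of a region or the bases it covers. Control H3K27ac regions sharing 1 bp were merged, and overlaps and distances to TSSs of GENCODE vM1 (NCBIM37, the same build as mm9) were computed with Python 3.11.15, NumPy 2.4.6, SciPy 1.17.1 and pysam 0.24.0, on code tested on simulated data. Nearest genes were protein-coding. Members and gene lists were chosen with earlier results of these data known. Genes named were the 10 with the most members (ties by summed width), up to 4 per list, the 3 largest clusters, the 5 widest members and 8 loci the study shows or names; Gfra2, Apcdd1 and the other genes with only members, the genes whose promoters left, and the 11 members with Polycomb marks were named after their values were seen. Marks not used in the rule were compared by exact two-sided permutation over libraries. Intervals are exact (Clopper-Pearson) and cover counting error only. Same-numbered H3K27me3 libraries deviated together in covered bases per merged region (correlations 0.932, 0.875 and 0.796), though less in presence (0.178, 0.124 and 0.0501), and the labels name no shared batch. Alternatives varied the TSS distance, the overlap, the width and each library in turn. A gene with only members and the sequence of a further list's widest member are not reported here.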

Additional observations from a re-analysis of the deposited data

How the results depend on the processing

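The counts moved with the choice of control libraries and with how alike their cover had to be. Without one library at a time, members ranged from 3592 to 11513, clusters of 3 or more from 114 to 1009, genes nearest to a member from 2281 to 4669, the intergenic share from 49.1% to 53.7% and the share of nearest regions also lost from 55.9% to 72.4%, the highest counts and the highest neighbour share being those without control replicate 1. Leaving out a library also loosened the rule. A control list left out ended the need for a call in both, and a 4-OHT or FLAG list left out removed a ground for exclusion. The number of members could therefore only stay the same or rise. Where 50% of a region had to be covered to end membership, there were 6553 members, 377 clusters and a neighbour share of 69.9%, and with control regions of at least 500 bp there were 1567 members, 23 clusters, 1170 genes and a share of 44.7%. The neighbour share was 59.4% where a 4-OHT or FLAG region within 1 kb ended membership. Clusters numbered 65 with a gap of 10 kb and 192 with 50 kb. Of the alternatives chosen after seeing the data, joining regions within 1 kb gave 25 clusters and 40.9%, asking for over 100 bp in each control list gave 64 clusters and 50.5%, widths between the quartiles gave 71.5%, and like cover in both control lists gave 441 members, 58.3% intergenic, 27.1% for neighbours, 0 clusters and 408 genes. The cause of these moves was not tested. In the central 300 bp 3 motifs in place of 4 were more frequent in members than in all distal regions, Foxh1 falling from 1.14 to 0.91 times the share of all distal regions.

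The differences in H3K27me3 and Suz12 kept their direction under each alternative run, and none could pass 0.05. With one library left out, they were 0.0232 to 0.107 (H3K27me3 at members), -4.65 to -2.32 (at promoters), -0.171 to -0.0589 (members minus kept regions), 0.0347 to 0.0835 (Suz12 at members) and 3.99 to 7.41 percentage points (at promoters). With the replicate block the differences were unchanged, at 0.0742, -3.62, 0.0696 and 5.7, with exact permutation p of 0.5, 0.25, 0.5 and 0.5, and it changed no call. Where a mark had to cover 50% of a region, the differences were 0.0278 (H3K27me3 at members), -0.0229 (members minus kept regions) and 0.0139 (Suz12 at members).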
